A study of Mus musculus with 12 samples.

Results

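Collagen genes were taken from the liver count tables as every protein-coding gene whose name has the form Col, a number, a and a number, which gave 44 of the 54532 genes counted, or 44 of 22046 protein-coding genes. By class they were 11 fibrillar genes, 6 of type IV (basement membrane), 9 FACITs (fibril-associated collagens with interrupted helices), 6 of type VI, 2 multiplexins, 4 transmembrane collagens, 3 network-forming collagens of types VIII and X, and 3 others (types VII, XXVI and XXVIII). RNA came from whole livers of male mice with floxed alleles of PPARγ, a nuclear receptor that drives fat storage. At 8 weeks of age the mice received an adeno-associated virus of serotype AAV8 with the TBG promoter, which is active in hepatocytes, driving either Cre recombinase (PPARγ-KO) or eGFP (control littermates, labelled WT). All mice, controls included, thus carried the floxed alleles and a virus, and all ate a fast-food diet (FFD) rich in saturated fat, cholesterol and sucrose with fructose and glucose in the drinking water. Livers were taken after 2 or 5 months of the diet, with 3 libraries for each genotype and time, 12 in all. Because the TBG promoter acts in hepatocytes, stellate cells, fibroblasts, endothelial cells and macrophages of both groups kept their PPARγ alleles.

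Collagens are extracellular proteins whose chains wind around each other into a long helix. The fibrillar types I, III and V build the cable-like fibrils that accumulate in liver fibrosis, and in liver they come mostly from stellate cells and portal fibroblasts. Type IV forms the sheet of basement membranes, type VI forms beaded microfilaments around cells, FACITs decorate the surface of fibrils, and the multiplexins, types XV and XVIII, sit between basement membrane and stroma. Collagen XVIII is unusual in that hepatocytes make much of it in liver, and its end releases the fragment endostatin. In bulk tissue, fewer cells of a type and less RNA per cell cannot be told apart.

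Each library held 16367775 to 27452284 counts, of which collagens made up 0.1384% to 0.2006%. Values are normalized CPM, counts divided by library size and scaled by edgeR's TMM method. Nothing in the labels ties the replicates to separate animals, so p-values measure the spread between these libraries. Pparg was higher, not lower, in the libraries labelled PPARγ-KO: it ran from 37.6 to 41.4 CPM in WT and from 50.4 to 66.5 in PPARγ-KO at 2 months (edgeR adjusted p = 0.0309), and from 36.9 to 41.4 and from 75.0 to 92.9 at 5 months (edgeR adjusted p = 2.57e-06). The counts cover the whole gene and not the deleted exons alone, and the reason for the higher counts was not tested. The study reports loss of PPARγ protein in PPARγ-KO livers by Western blot at both times. Every direction below follows the labels. WT replicate 1 at 2 months stood apart from its group, with a chi-square per gene of 31.7 and 27.6 against the other WT libraries, which differed from each other by 10.3. It also had the lowest level of its group in Col1a1, Col1a2, Col3a1, Col5a1, Col5a2, Col27a1, Col6a1, Col6a2 and Col6a3, and results at 2 months are given without it too.

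The 250 bases before the RefSeq transcription start (GRCm38.p6) are shown for 6 collagen genes, 3 that were lower in PPARγ-KO (Col3a1, Col5a1, Col6a3) and 3 that were higher (Col15a1, Col27a1, Col5a3), so that the start regions of genes that moved apart can be read side by side. Col6a3 and Col27a1 passed the edgeR test given below at 2 months only, and the other genes at 5 months only. At 5 months the Col6a3 libraries of the groups overlapped. Capitals mark matches, on either strand, to CCAAT, to TATAAA or to GGGCGG, the GC box bound by Sp1. Col3a1 was read from chr1:45311288-45311537 (plus strand), Col5a1 from chr2:27886175-27886424 (plus), Col6a3 from chr1:90843972-90844221 (minus), Col15a1 from chr4:47207762-47208011 (plus), Col27a1 from chr4:63215162-63215411 (plus) and Col5a3 from chr9:20815068-20815317 (minus), each 5′ to 3′.
Col3a1: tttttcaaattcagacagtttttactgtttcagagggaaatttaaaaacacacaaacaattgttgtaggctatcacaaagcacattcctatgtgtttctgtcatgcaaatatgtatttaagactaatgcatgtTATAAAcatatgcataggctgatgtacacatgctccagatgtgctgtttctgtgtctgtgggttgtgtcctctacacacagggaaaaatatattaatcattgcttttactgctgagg
Col5a1: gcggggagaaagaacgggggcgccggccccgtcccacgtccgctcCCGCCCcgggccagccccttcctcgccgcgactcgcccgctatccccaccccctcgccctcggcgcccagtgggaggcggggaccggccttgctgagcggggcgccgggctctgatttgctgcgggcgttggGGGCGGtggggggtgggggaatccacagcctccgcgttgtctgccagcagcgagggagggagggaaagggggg
Col6a3: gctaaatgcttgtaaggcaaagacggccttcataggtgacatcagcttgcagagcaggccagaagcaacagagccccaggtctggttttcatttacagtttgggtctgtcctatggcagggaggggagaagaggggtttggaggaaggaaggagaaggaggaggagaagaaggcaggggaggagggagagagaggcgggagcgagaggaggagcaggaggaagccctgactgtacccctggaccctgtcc
Col15a1: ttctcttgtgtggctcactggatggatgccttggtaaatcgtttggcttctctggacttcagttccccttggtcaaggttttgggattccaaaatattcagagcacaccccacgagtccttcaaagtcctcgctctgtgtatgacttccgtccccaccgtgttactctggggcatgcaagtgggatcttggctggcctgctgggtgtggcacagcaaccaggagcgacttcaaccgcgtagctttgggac
Col27a1: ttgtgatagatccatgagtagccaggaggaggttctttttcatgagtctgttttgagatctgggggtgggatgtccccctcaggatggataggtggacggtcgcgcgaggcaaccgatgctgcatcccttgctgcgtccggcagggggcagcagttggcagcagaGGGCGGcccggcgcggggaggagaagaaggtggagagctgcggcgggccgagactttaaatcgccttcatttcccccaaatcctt
Col5a3: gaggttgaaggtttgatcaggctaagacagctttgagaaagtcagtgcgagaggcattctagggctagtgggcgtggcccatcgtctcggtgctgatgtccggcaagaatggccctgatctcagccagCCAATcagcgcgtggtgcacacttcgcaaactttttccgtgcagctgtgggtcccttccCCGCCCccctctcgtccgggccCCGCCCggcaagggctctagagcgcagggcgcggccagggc
Col3a1 had the lowest GC content of these windows at 35.2% and held a TATAAA match 112 to 117 bases before the start. Col5a1 had the highest GC content at 76.4%, with GGGCGG matches on both strands. Col5a3, which moved the opposite way to Col5a1, had 62.8% GC, 1 CCAAT match and 2 GGGCGG matches, and Col27a1 had 1 GGGCGG match. Col6a3 and Col15a1 held none of the motifs searched. RefSeq entries matched 35 of the 44 genes with 38 windows, and 22 of these windows (57.9%) held GGGCGG, against 32.7% of all 32851 windows of the same length. CCAAT was found in 34.2% of the collagen windows and 33.8% of all windows, and TATAAA in 13.2% and 12.4%. TGACTCA, the AP-1 motif, was found in 1 collagen window, that of Col6a1, and in 4.46% of all windows. Neither the SMAD palindrome GTCTAGAC nor the DR1 direct repeat bound by PPAR/RXR was in a collagen window, and these were in 0.167% and 0.0335% of all windows. Windows of the same gene can overlap, and no motif searched contains another. The RefSeq start was the start in the count tables for Col3a1, Col5a1, Col6a3 and Col5a3, and lay 149 bases from it for Col15a1 and 1408 for Col27a1. Genes without a RefSeq entry here were Col1a1, Col2a1, Col4a3, Col5a2, Col9a3, Col12a1, Col14a1, Col22a1 and Col26a1.

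Of the 44 genes, 20 had a mean of at least 1 CPM over the 12 libraries, 20 had a mean above 0 and below 1, and 4 (Col2a1, Col9a1, Col19a1 and Col26a1) had no count in any library. Per kilobase of gene length, Col18a1 stood far above the rest with a mean of 128 CPM per kb. Col14a1, a FACIT, followed with 16.1, then Col3a1 with 13.2, Col4a1 with 10.7, Col1a1 with 9.26, Col4a2 with 8.23 and Col5a3 with 7.46 CPM per kb. Col1a2, Col27a1, Col6a1 and Col15a1 had 4.88, 4.73, 4.53 and 3.14 CPM per kb. The multiplexins Col15a1 and Col18a1 held 43.5% to 64.8% of all collagen CPM in a library, and the fibrillar class held 17.7% to 32.2%. Col1a1 and Col1a2 encode the chains of type I collagen, the main fibril protein of scar, and Col3a1 encodes type III, which co-assembles with it. The lengths are those in the deposited tables, which count Col1a2 as 12426 bases against 6563 for Col1a1.

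At the low end, Col20a1 reached a mean of 0.96 CPM, but it overlaps 9230112E08Rik on the same strand, and that gene had 495 counts over all libraries against 229 for Col20a1, so its value is uncertain. Col10a1 lies within Nt5dc1 on the opposite strand and had 23 counts in all. Col4a4, Col11a2, Col6a6, Col4a3, Col23a1 and Col24a1 had means of 0.754, 0.747, 0.603, 0.591, 0.53 and 0.475 CPM. Fold changes of these genes rest on few counts.

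**Figure D1:**
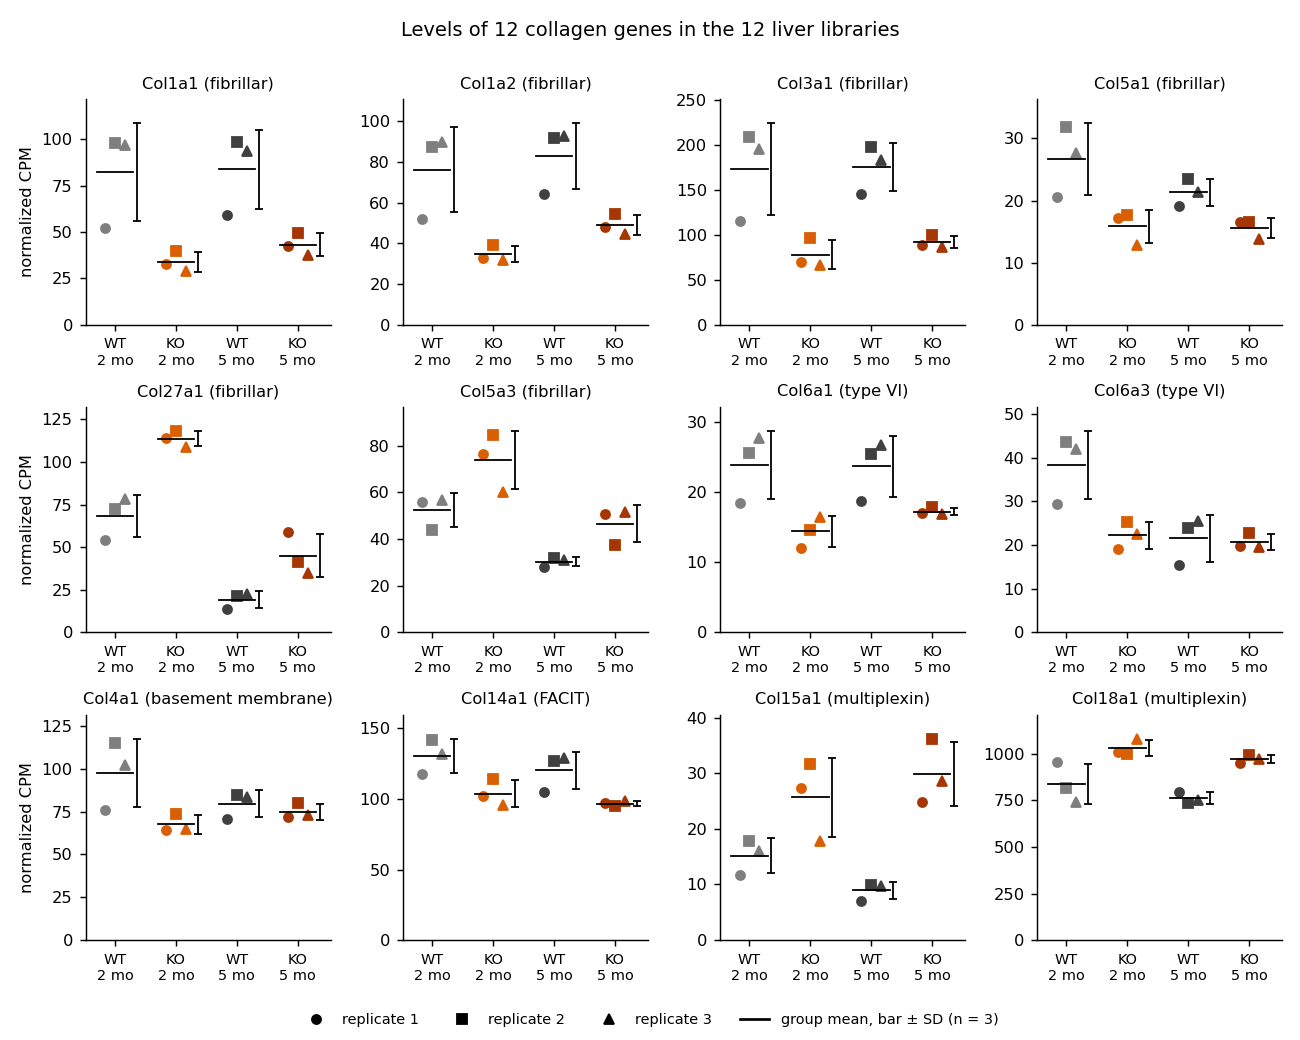
Normalized CPM (y axis, from 0) of 12 collagen genes in each of the 12 libraries by group (x axis), with group means and SD bars (n = 3). Col1a1, Col1a2 and Col3a1 sit lower in both PPARγ-KO groups, Col27a1, Col5a3 and Col18a1 sit higher, and Col27a1 lies lower at 5 than at 2 months in both genotypes.

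The comparison of PPARγ-KO with WT asked how collagen expression in the liver differed once PPARγ was deleted in hepatocytes. At 2 months, type VI genes Col6a1 and Col6a3 and the FACIT Col12a1 fell, and Col27a1 rose. Of 28 collagens with enough counts to test, these 4 (14.3%) had an edgeR adjusted p under 0.05, against 3.56% of all 14573 genes tested, with 3 lower (1.78% of all genes) and 1 higher (1.78%). The median log2 fold change was -0.47 over the collagens tested and -0.00483 over all genes. In 14 of the 28 the PPARγ-KO libraries all lay below the WT libraries (12.0% of all genes), and in 4 they all lay above (12.1%), 24.1% of all genes being apart in either direction.

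Type I and III genes had the log2 fold changes furthest from 0 among the 28 collagens tested at 2 months. None of them passed in the main fit, which held every library and no replicate block. Col1a1 had 51.9, 97.8 and 97.0 CPM in WT and 32.8, 39.6 and 29.0 in PPARγ-KO. Col1a2 had 52.0, 87.2 and 89.5 in WT and 33.0, 39.2 and 31.9 in PPARγ-KO. Col3a1 had 115, 209 and 195 in WT and 69.9, 96.1 and 66.7 in PPARγ-KO. In none of these genes did the groups overlap, and WT replicate 1 was the lowest WT library in each. The log2 fold changes were -1.29 for Col1a1 (SE 0.287, edgeR adjusted p = 0.0898), -1.14 for Col1a2 (SE 0.223, adjusted p = 0.0565) and -1.16 for Col3a1 (SE 0.28, adjusted p = 0.106). Without WT replicate 1 they were -1.53, -1.35 and -1.38, with edgeR adjusted p = 0.000107, 2.74e-05 and 0.00859. With the replicate number as a block, Col1a2 and Col3a1 passed (edgeR adjusted p = 0.0245 and 0.0225) and Col1a1 did not (0.0964).

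Type VI collagen is assembled from the products of Col6a1, Col6a2 and a further chain gene such as Col6a3. Of these, Col6a1 and Col6a3 fell. Col6a3 had 29.5, 43.7 and 41.9 CPM in WT and 19.1, 25.2 and 22.5 in PPARγ-KO, -0.79 on the log2 scale (SE 0.162; adjusted p by edgeR = 0.0381). Col6a1 had 18.5, 25.6 and 27.7 against 12.1, 14.7 and 16.5, with -0.73 (SE 0.165, adjusted p = 0.0484). Col6a2 had 9.65, 16.5 and 18.4 against 7.87, 8.72 and 8.82, with -0.81, and did not pass (adjusted p = 0.0848; 0.0239 with the replicate block). The groups did not overlap in any of these genes. The last of the calls, Col12a1, a fibril-associated collagen of loaded tissue, had 5.62, 7.20 and 7.66 CPM in WT and 4.30, 3.76 and 2.94 in PPARγ-KO, -0.91 on the log2 scale (SE 0.204, adjusted p = 0.0408). Col14a1, the most abundant FACIT per kilobase, was at 131 ± 12.2 and 104 ± 9.3 CPM (SD, n = 3 each) and did not pass (adjusted p = 0.0804).

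Col27a1 and Col5a3 went the other way although both belong to the fibrillar class. Col27a1, a minor fibrillar collagen best known from cartilage, had 54.3, 72.6 and 78.3 CPM in WT and 114, 118 and 109 in PPARγ-KO. Its log2 fold change was 0.73 (SE 0.123, edgeR adjusted p = 0.0189). Col5a3, a minor chain of type V collagen, had 56.1, 44.0 and 56.9 in WT and 76.6, 84.7 and 60.2 in PPARγ-KO, without overlap and without passing the test (log2 fold change 0.49, adjusted p = 0.116). The other chains of type V, which regulates the width of type I fibrils, had log2 fold changes of the opposite sign: -0.76 for Col5a1 (adjusted p = 0.0629) and -0.77 for Col5a2 (adjusted p = 0.2).

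The multiplexins were higher, though not past the threshold at 2 months. Col18a1 had 955, 818 and 740 CPM in WT and 1010, 998 and 1080 in PPARγ-KO (log2 fold change 0.29, edgeR adjusted p = 0.162). Col15a1 had 11.7, 17.9 and 16.0 in WT and 27.4, 31.7 and 17.9 in PPARγ-KO, where the lowest PPARγ-KO library met the highest WT library (log2 fold change 0.74, adjusted p = 0.167). Among type IV genes, Col4a1 was at 97.5 ± 19.8 and 67.5 ± 5.38 CPM (SD, n = 3 each; adjusted p = 0.0935) and Col4a2 at 67.0 ± 10.7 and 51.6 ± 5.02 (adjusted p = 0.133).

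The number of calls at 2 months changed with single libraries and with the test. With WT replicate 1 left out, 15 collagens passed, 2 higher and 13 lower (10.6% of all genes, 5.25% lower), and with any other library left out 0 to 2 passed (WT replicate 2: 0, WT replicate 3: 1, PPARγ-KO replicates 1, 2 and 3: 0, 0 and 2), with 15 to 19 at an unadjusted p under 0.05. Calls over all genes dropped too, from 519 with every library to 117, 150, 133, 238 and 202 in the same order. With the replicate number as a block, 10 passed, 1 higher and 9 lower (5.61% of all genes, 2.65% lower): Col1a2 (edgeR adjusted p = 0.0245), Col3a1 (0.0225), Col4a1 (0.0143), Col5a1 (0.0385), Col6a2 (0.0239) and Col14a1 (0.0416) were added. DESeq2 called 3 higher and 10 lower (496 and 492 of all 14573 genes), and with library size alone as the scaling 0 were higher and 4 lower (171 and 349 of all genes).

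**Figure D2:**
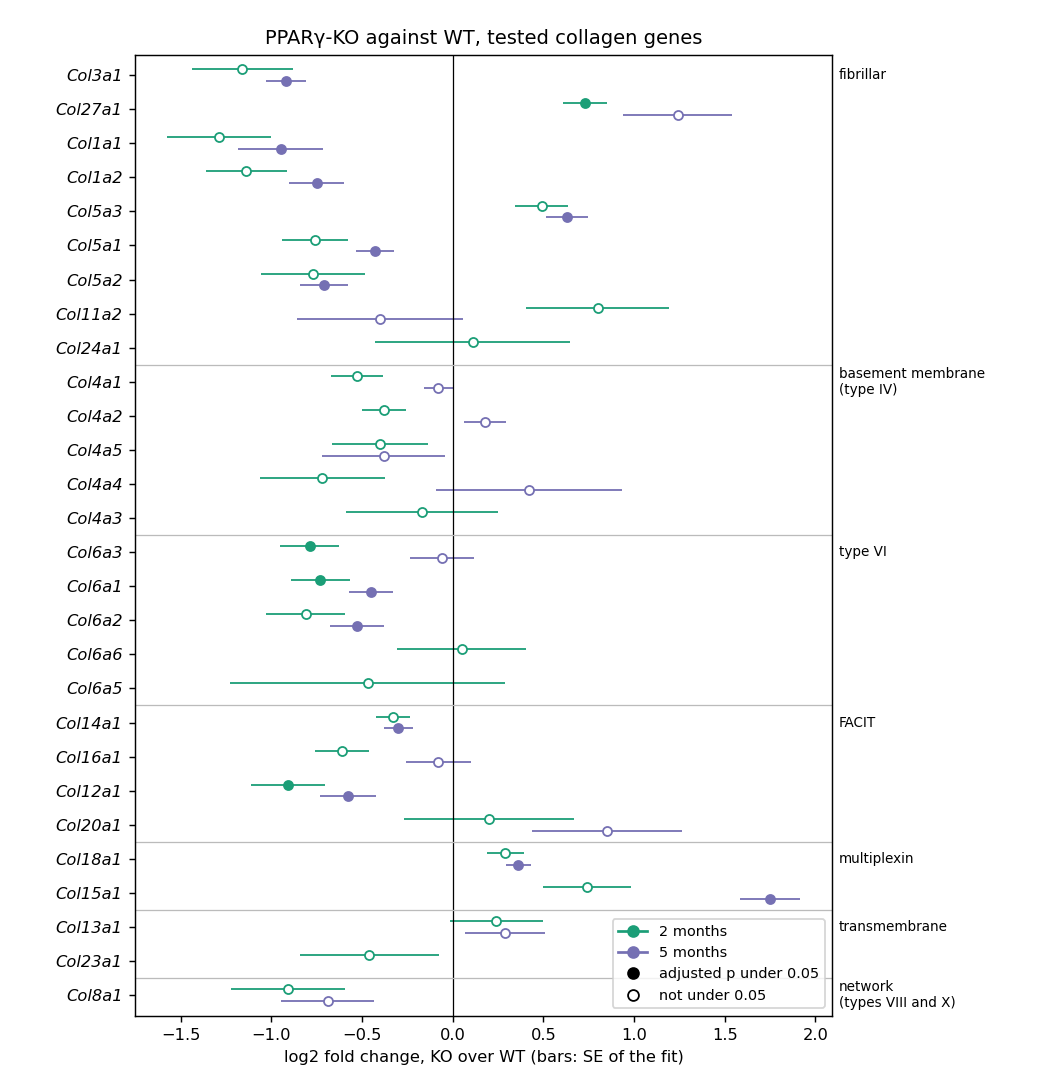
Log2 fold change of PPARγ-KO over WT (x axis, bars are the SE of the fit) for each collagen gene tested (y axis, by class) at 2 and at 5 months, filled where the edgeR adjusted p was under 0.05. Col1a1, Col1a2 and Col3a1 lie left of 0 at both times, Col27a1, Col5a3, Col18a1 and Col15a1 lie right of it, and Col15a1 at 5 months reaches 1.75.

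At 5 months, Col1a1, Col1a2, Col3a1, Col5a1, Col5a2, Col6a1, Col6a2, Col12a1 and Col14a1 fell in PPARγ-KO, and Col5a3, Col15a1 and Col18a1 rose. Of 23 collagens tested, 12 (52.2%) had an edgeR adjusted p under 0.05, against 18.4% of all 14138 genes tested. Of these, 9 were lower (9.51% of all genes) and 3 higher (8.9%). The median log2 fold change was -0.30 over the collagens tested and -0.00577 over all genes. The libraries of the groups did not overlap in 10 lower and 4 higher collagens (19.0% and 15.8% of all genes, 34.8% either way).

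Col3a1 had 145, 197 and 183 CPM in WT and 88.7, 100 and 86.9 in PPARγ-KO, -0.92 on the log2 scale (SE 0.109; adjusted p by edgeR = 0.000322). Col1a2 had 64.4, 91.6 and 92.6 against 48.0, 54.3 and 44.7, with -0.75 (SE 0.151, adjusted p = 0.0136). Col1a1 had 59.4, 98.3 and 93.9 against 42.2, 49.6 and 37.5, with -0.95 (SE 0.232, adjusted p = 0.0499). Every PPARγ-KO library lay below every WT library in these genes, and replicate 1 was the lowest of the WT libraries at this time too. The call of Col1a1 was at the edge and was lost in 8 of 15 alternatives, over which its adjusted p ran from 5.09e-05 to 0.159. That of Col3a1 held in all of them.

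The type V chains Col5a1 and Col5a2 fell with types I and III. Col5a2 had 12.1, 15.0 and 17.2 CPM in WT and 9.01, 9.02 and 8.77 in PPARγ-KO, with -0.71 on the log2 scale (SE 0.132; adjusted p by edgeR = 0.00225), and Col5a1 fell from 21.3 ± 2.15 to 15.6 ± 1.57 CPM (SD, n = 3 each; adjusted p = 0.0125). Col5a2 lies 24615 bases from Col3a1, tail to tail on chromosome 1. Col5a3 again stood on the other side, with 28.2, 31.9 and 31.1 CPM in WT and 50.6, 37.6 and 51.7 in PPARγ-KO, 0.63 on the log2 scale (SE 0.115, adjusted p = 0.0038). Col27a1 had 13.6, 21.6 and 22.6 against 59.2, 41.5 and 34.6. Its libraries did not overlap, and with a log2 fold change of 1.24 (SE 0.3) it narrowly missed the threshold (adjusted p = 0.0551).

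Within type VI, Col6a1 and Col6a2 fell and Col6a3 did not pass the test. Col6a1 had 18.8, 25.5 and 26.8 CPM in WT and 17, 17.9 and 16.9 in PPARγ-KO (log2 fold change -0.45, edgeR adjusted p = 0.0233), and Col6a2 was at 18.6 ± 3.94 and 12.8 ± 1.21 CPM (SD, n = 3 each; log2 fold change -0.53, adjusted p = 0.0289). Col6a3 was at 21.6 ± 5.38 and 20.6 ± 1.81 CPM, with overlapping libraries and -0.06 on the log2 scale (SE 0.177, adjusted p = 0.871). Among FACITs, Col12a1 fell from 7.59 ± 0.165 to 5.02 ± 0.813 CPM (adjusted p = 0.0198) and Col14a1 from 120 ± 13.2 to 96.7 ± 1.8 (adjusted p = 0.0177), while Col16a1 did not pass (adjusted p = 0.824).

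Col15a1, which marks the zone under vessels and portal stroma, had the log2 fold change furthest from 0 of the 23 collagens tested at 5 months. It had 7.11, 9.85 and 9.81 CPM in WT and 24.9, 36.2 and 28.6 in PPARγ-KO, a 3.36-fold higher level (log2 fold change 1.75, SE 0.167, edgeR adjusted p = 0.000122). The lowest PPARγ-KO library was far above the highest WT library. Col18a1, the hepatocyte-derived multiplexin, had 797, 736 and 753 CPM in WT and 952, 994 and 973 in PPARγ-KO, 1.29-fold higher (log2 fold change 0.36, SE 0.0688, adjusted p = 0.00269). Type IV genes gave no call at 5 months: Col4a1 was at 79.6 ± 7.82 and 74.9 ± 4.58 CPM (adjusted p = 0.565) and Col4a2 at 46.8 ± 6.32 and 52.6 ± 7.18 (adjusted p = 0.338). Leaving out WT replicate 2, WT replicate 3 or PPARγ-KO replicate 3 left 6, 7 and 6 collagens called, and with all 12 libraries in 1 fit 4 were higher and 4 lower. Over all genes these settings called 1601, 1593, 1740 and 2039, against 2602 in the main fit.

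Side by side, 23 collagens were tested at both times. Of these, 14 had a log2 fold change below 0 at both times, and in every one of the 14 it was further from 0 at 2 months than at 5. In 8 of them (Col1a1, Col1a2, Col3a1, Col5a1, Col6a1, Col6a2, Col12a1 and Col14a1) the groups did not overlap at either time. Col5a3, Col18a1 and Col27a1 were higher without overlap at both times. Shares of all genes for these counts over both times, the 14 of 14 included, were not taken, and only the shares apart at each time stand above. All these genes were read in the same libraries, so their fold changes are not independent of each other. The difference of the knockout effect, 5 minus 2 months, was tested in 1 fit of all 12 libraries. None of 29 collagens passed (1.57% of all 15127 genes did, 0.661% upward and 0.912% downward), 5 had an unadjusted p under 0.05 with edgeR, and DESeq2 called 1, Col15a1 (adjusted p = 0.0354), and 594 of all genes. The median of these differences was 0.27, against -0.00445 over all genes, with 25 above 0 and 4 below. The share of all genes above 0 was not taken. A difference above 0 was a smaller fall in some collagens, such as Col1a1, and a larger rise in others, such as Col15a1.

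Those 5 genes, singled out after their values were seen, were Col15a1, Col4a2, Col4a1, Col6a3 and Col16a1, with differences of 1.00 (edgeR adjusted p = 0.202), 0.55 (0.186), 0.44 (0.263), 0.72 (0.247) and 0.52 (0.328) on the log2 scale. Without WT replicate 1 at 2 months, Col4a1 and Col4a2 passed (edgeR adjusted p = 0.0116 and 0.0496), and with the replicate block Col4a2 and Col6a3 did (0.043 and 0.0266). Type I and III genes had differences of 0.33 for Col1a1 (SE 0.396, adjusted p = 0.772), 0.38 for Col1a2 (SE 0.305, adjusted p = 0.62) and 0.23 for Col3a1 (SE 0.328, adjusted p = 0.816).

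Summed by class, FACITs were lower and multiplexins higher in PPARγ-KO without overlap at both times, while the collagen total overlapped. The sum over all 44 genes was 1750 ± 92.5 CPM in WT and 1700 ± 44.0 in PPARγ-KO at 2 months, and 1540 ± 85.9 and 1600 ± 44.0 at 5 months (SD, n = 3 each), with overlapping libraries at both times. Col1a1, Col1a2 and Col3a1 together made up 219, 394 and 381 CPM in WT and 136, 175 and 128 in PPARγ-KO at 2 months. At 5 months they made up 269, 387 and 369 against 179, 204 and 169. The mean ratio of PPARγ-KO to WT was thus 0.441 at 2 months (0.377 without WT replicate 1) and 0.538 at 5 months. Col5a3 and Col27a1 together gave 110, 117 and 135 CPM in WT and 191, 202 and 169 in PPARγ-KO at 2 months. At 5 months the WT libraries had 41.8, 53.4 and 53.7 CPM and the PPARγ-KO libraries 110, 79.1 and 86.4.

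The whole fibrillar class, in which these opposite parts add up, had a ratio of 0.729 at 2 months, with overlapping libraries, and 0.703 at 5 months, without overlap. Type VI had ratios of 0.592, without overlap, and 0.791, with overlap. Type IV had 0.725, without overlap, and 1.00, with overlap. FACITs had 0.779 and 0.809, mostly from Col14a1 (131 of 147 CPM in WT at 2 months). Multiplexins had 1.24 and 1.3, mostly from Col18a1. Without WT replicate 1 the ratios at 2 months were 0.642 for fibrillar genes, 0.526 for type VI, 0.747 for FACITs, 0.66 for type IV and 1.32 for multiplexins. As a share of all collagen CPM, multiplexins made up 49.0% in WT and 61.9% in PPARγ-KO at 2 months in the group means, and 50.4% and 62.6% at 5 months. No test was made on these sums.

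**Figure D3:**
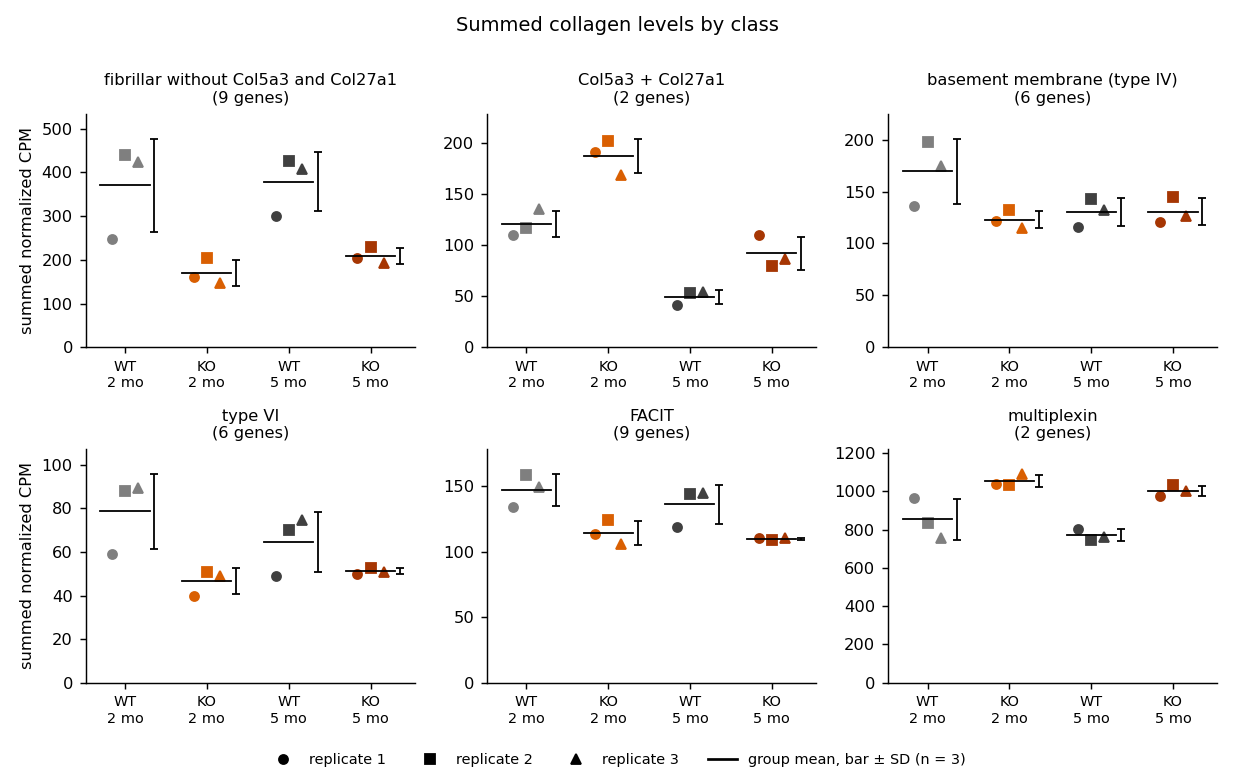
Summed normalized CPM (y axis, from 0) of collagen classes in each library by group (x axis), with group means and SD bars (n = 3), the fibrillar class being split into Col5a3 with Col27a1 and the other 9 genes. The 9 fibrillar genes are lower in PPARγ-KO at both times without overlap, the pair and the multiplexins are higher, and type IV overlaps at 5 months.

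The comparison of 5 with 2 months of diet was made within each genotype, between livers taken at each time. Col27a1 and Col5a3 fell in both genotypes, and type I and III genes gave no call in WT. Time cannot be told apart from preparation or sequencing batch, since nothing states whether the libraries of both times were handled together. At 5 months the mice were also older and longer past the virus injection than at 2 months. No library came from mice off the diet. Length of diet, age and time since injection thus cannot be told apart. These comparisons share their libraries with the genotype comparisons above. In WT, 6 of 27 collagens tested (22.2%) had an edgeR adjusted p under 0.05, against 46.4% of all 14491 genes. All 6 were lower (22.7% of all genes), and none was higher (23.8%). At an unadjusted p under 0.05 there were 9, and none of these was higher, and DESeq2 likewise called 0 higher and 6 lower. With the replicate block 2 were higher and 8 lower. Over all genes DESeq2 called 3269 higher and 3073 lower, and the block 3603 and 3338. The libraries of both times lay apart in 9 collagens, all lower (28.0% of all genes, 56.7% either way). The median log2 fold change was -0.32, against -0.0128 over all genes.

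Col27a1 fell from 68.4 ± 12.5 to 19.3 ± 4.91 CPM in WT (SD, n = 3 each), -1.82 on the log2 scale (SE 0.227; adjusted p by edgeR = 0.00109). Col5a3 fell from 52.3 ± 7.23 to 30.4 ± 1.94 CPM (log2 fold change -0.78, adjusted p = 0.000198). Col15a1 fell from 15.2 ± 3.17 to 8.92 ± 1.57 (-0.77, adjusted p = 0.00591). In all of these the libraries of both times lay apart. The others called were Col6a3, from 38.4 ± 7.72 to 21.6 ± 5.38 CPM (-0.83, adjusted p = 0.0217), Col4a2, from 67.0 ± 10.7 to 46.8 ± 6.32 (-0.52, adjusted p = 0.0106), and Col24a1, a rare fibrillar collagen that went from 0.699 ± 0.108 to 0.135 ± 0.0717 CPM (-2.34, adjusted p = 0.00544). Col1a1, Col1a2 and Col3a1 had log2 fold changes of 0.03 (SE 0.334, adjusted p = 0.951), 0.12 (SE 0.257, adjusted p = 0.736) and 0.02 (SE 0.248, adjusted p = 0.959). Their signs turned without WT replicate 1 at 2 months, to -0.21, -0.09 and -0.20.

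In PPARγ-KO, 6 of 27 collagens (22.2%) passed, 2 higher and 4 lower, against 44.9% of all 14478 genes (22.7% higher, 22.2% lower). The libraries of both times lay apart in 4 higher and 5 lower collagens (28.2% and 27.5% of all genes, 55.6% either way), and the median log2 fold change was -0.07, against -0.0111 over all genes. Col27a1 fell from 114 ± 4.22 to 45.1 ± 12.7 CPM (log2 fold change -1.33, SE 0.198, edgeR adjusted p = 0.0034) and Col5a3 from 73.8 ± 12.5 to 46.7 ± 7.85 (-0.66, adjusted p = 0.0216). Col11a2, a minor fibrillar chain, and Col6a6, an alternative type VI chain, fell at low levels, from 1.18 to 0.49 CPM (adjusted p = 0.0188) and from 0.838 to 0.222 CPM (adjusted p = 0.00782). Col1a2 rose from 33.0, 39.2 and 31.9 to 48.0, 54.3 and 44.7 CPM (0.50, SE 0.0969, adjusted p = 0.00169) and Col6a2 from 7.87, 8.72 and 8.82 to 12.7, 11.6 and 14.0 (0.59, SE 0.117, adjusted p = 0.00188), without overlap. Col1a1 (0.35, SE 0.136, adjusted p = 0.066) and Col3a1 (0.24, SE 0.146, adjusted p = 0.219) did not pass. Leaving out PPARγ-KO replicate 2 at 2 months raised the calls to 10, 6 higher and 4 lower (3044 and 2980 of all genes).

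**Figure D4:**
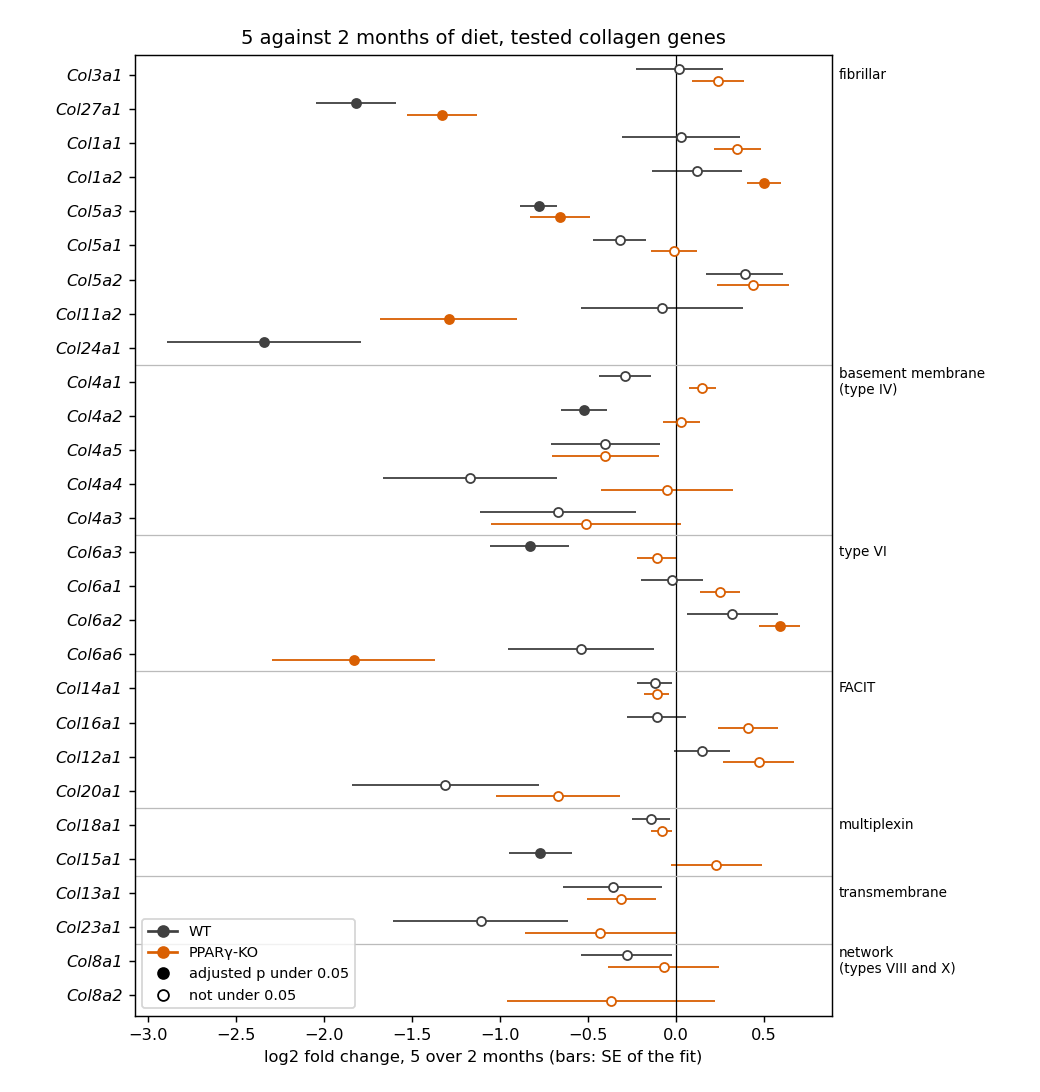
Log2 fold change from 2 to 5 months of diet (x axis, bars are the SE of the fit) for each collagen gene tested (y axis, by class) in WT and in PPARγ-KO, filled where the edgeR adjusted p was under 0.05. Col27a1 and Col5a3 lie left of 0 in both genotypes, Col1a2 and Col6a2 are called right of 0 in PPARγ-KO, and Col15a1, Col6a3, Col4a2 and Col24a1 are called left of 0 in WT.

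Ratios between chains that are built into the same protein were taken per kilobase. Col1a1 over Col1a2, whose products join into type I collagen, was 2.02 ± 0.121 in WT and 1.84 ± 0.101 in PPARγ-KO at 2 months, and 1.90 ± 0.144 and 1.66 ± 0.07 at 5 months (SD, n = 3 each). The groups overlapped at 2 months, and at 5 months every PPARγ-KO library lay below every WT library. The absolute ratio depends on the length used: with the longest protein-coding transcript of GENCODE M21 (5930 and 5348 bases) its mean over the 12 libraries was 0.884 in place of 1.86. Col4a1 over Col4a2, a pair of genes that overlap head to head by 22 bases on chromosome 8, was 1.28 ± 0.0699 and 1.17 ± 0.108 at 2 months and 1.52 ± 0.164 and 1.27 ± 0.0896 at 5 months, where PPARγ-KO was again lower without overlap.

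In type VI, Col6a3 over Col6a1 was 0.583, 0.624 and 0.554 in WT and 0.577, 0.629 and 0.5 in PPARγ-KO at 2 months. At 5 months it was 0.300, 0.344 and 0.347 in WT and 0.424, 0.465 and 0.422 in PPARγ-KO. The ratio was lower at 5 months in every library, and at 5 months every PPARγ-KO library lay above every WT library. Col6a1 over Col6a2 was 3.16 ± 0.429 and 3.23 ± 0.314 at 2 months and 2.44 ± 0.101 and 2.59 ± 0.324 at 5 months, with overlapping genotypes. The ratios were not tested, and a change of length moves all libraries alike.

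**Figure D5:**
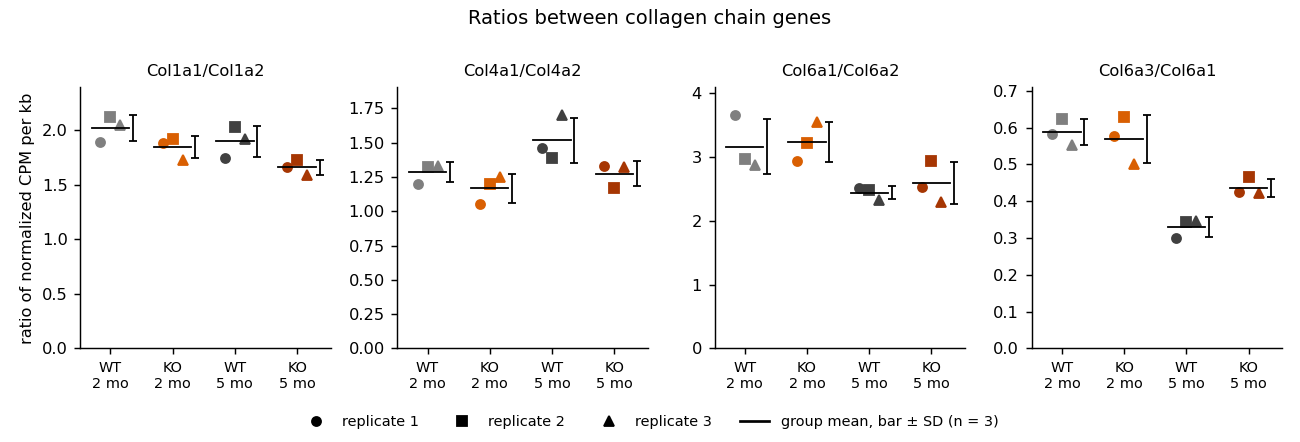
Ratios of normalized CPM per kb between chain genes (y axis, from 0, with the gene lengths of the deposited tables) in each library by group (x axis), with group means and SD bars (n = 3). Col6a3 over Col6a1 lies between 0.5 and 0.629 in all libraries at 2 months and between 0.300 and 0.465 at 5 months, higher in PPARγ-KO than in WT at 5 months.

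Genes that make, export, process and bind collagen were read from lists of their own. Of 59 such genes in the lists, 49 were tested at 2 months, with 1 higher and 1 lower by edgeR (3.56% of all genes were called either way) and a median log2 fold change of -0.17. The pair were Dcn and Ppib, which works with the prolyl hydroxylases on new procollagen and rose from 51.3 ± 3.24 to 68.0 ± 3.82 CPM (SD, n = 3 each; adjusted p = 0.0215). At 5 months 49 were tested, with 6 higher and 5 lower and a median of -0.13. The share called at 5 months was near the 18.4% of all genes.

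Of the 10 genes of the chaperone and export list, all tested at 5 months, 5 rose and 1 fell (8.9% and 9.51% of all genes), and the coat gene Sec24d did not pass (0.15 on the log2 scale, adjusted p = 0.165). Mia2, which helps load bulky cargo into vesicles, rose from 308 to 402 CPM (log2 fold change 0.40, edgeR adjusted p = 0.000627). Mia3, which encodes the collagen export receptor TANGO1, rose from 105 to 131 CPM (0.33, adjusted p = 0.00223). Sec23a, a coat protein of those vesicles, rose from 110 to 134 CPM (0.30, adjusted p = 0.00338), and Creb3l2 and Fkbp14 rose too (0.56 and 0.58, adjusted p = 0.000125 and 0.0128). In the same list Serpinh1, the collagen-specific chaperone HSP47, fell from 38.2 to 30.7 CPM (-0.31, adjusted p = 0.0406). Bmp1, the proteinase that removes the C-terminal propeptide of fibrillar procollagens, rose from 79.8 to 125 CPM (0.66, adjusted p = 1.28e-05), and Pcolce2, an enhancer of that step, fell from 4.71 to 2.23 CPM (-1.07, adjusted p = 0.0157).

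Among 8 fibril-binding proteoglycans, 7 were tested at each time, and 1 fell at 2 months (1.78% of all genes) and 2 at 5 months (9.51%). Dcn (decorin) fell from 196 to 154 CPM at 2 months (log2 fold change -0.34, edgeR adjusted p = 0.0316) and from 296 to 233 at 5 months (-0.33, adjusted p = 0.0052). Lum (lumican) fell from 23.4 to 13.2 CPM at 5 months (-0.82, adjusted p = 0.00125). Of the 5 lysyl oxidases, which cross-link collagen, none passed at either time with edgeR, at median log2 fold changes of -0.79 and -0.29. The 13 prolyl and lysyl hydroxylases and partners tested gave no call at 5 months, and of 9 receptors tested there 1, Lair1, an inhibitory collagen receptor of leukocytes, fell (-0.92, adjusted p = 0.00747).

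Cell markers were summed by list and set beside the collagen results. The 12 stellate cell markers summed to 460 to 501 CPM in WT and 423 to 440 in PPARγ-KO at 2 months, and 529 to 544 and 498 to 522 at 5 months, without overlap at either time. At 2 months none of the 12 passed (edgeR), and at 5 months 1 rose and 1 fell. At each time 5 of the 12 had a log2 fold change above 0, so the lower sums do not show a fall across the list. The 8 myofibroblast markers summed to 36.3 to 58.5 and 30.3 to 45.9 CPM at 2 months and to 87.7 to 97.7 and 67.2 to 67.8 at 5 months, where 4 of 6 tested fell. These 4 were Acta2, Timp1, Postn and Tnc. Of all genes tested at 5 months, 9.51% fell and 8.9% rose, against which this and the marker counts that follow can be read.

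The 8 portal fibroblast markers summed to 88.6 to 122 CPM in WT and 144 to 176 in PPARγ-KO at 5 months. Most of that sum was Gas6, at 90.1 and 146 CPM, which was the 1 call of 6 tested and rose, while 4 of the 6 had a log2 fold change below 0 and the median was -0.21. Endothelial markers summed to 316 to 320 CPM in WT and 271 to 293 in PPARγ-KO at 5 months (4 of 10 fell), macrophage markers to 1090 to 1200 and 509 to 663 (7 of 8 fell), and hepatocyte markers to 62500 to 67100 and 82900 to 94500 (2 of 10 rose). At 5 months, log2 fold changes were below 0 in 3 of 10 hepatocyte markers and above 0 in 3 of 10 endothelial markers. At 2 months hepatocyte markers summed to 62200 to 74200 CPM in WT and 81100 to 95500 in PPARγ-KO (1 of 10 rose, against 1.78% of all genes), and macrophage and endothelial markers overlapped. Cholangiocyte markers summed to 119 to 200 CPM in WT and 86.3 to 108 in PPARγ-KO at 2 months and to 149 to 295 and 224 to 267 at 5 months. The lower sum at 2 months does not show a fall across that list. None of its 8 markers passed there (edgeR), and 5 of the 8 had a log2 fold change above 0. Smooth muscle, mesothelial, T and NK cell, B cell and neutrophil markers summed to at most 17.5, 13.6, 9.44, 6.02 and 13.7 CPM in any library. Of these, B cell (1.45 to 2.45 against 4.38 to 6.00) and neutrophil sums (4.35 to 7.12 against 8.12 to 13.7) were lower in PPARγ-KO at 5 months without overlap. WT replicate 1 at 2 months had the lowest sums of its group for myofibroblast, portal fibroblast, endothelial, cholangiocyte and macrophage markers. No listed marker was at 0 in all 12 libraries. The part of these shifts in the collagen differences was not tested.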

How the data were processed

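Whole-liver RNA was sequenced by the authors on an Illumina NovaSeq as 12 libraries. The authors deposited raw read counts per gene; the study's methods name STAR and mm10, the submitters' processing notes name HISAT2 and mm10, and the counting program, annotation release and strand setting are not given in the sources used here. Each library was placed in its group by its label. Counts were tested with the quasi-likelihood test of edgeR 4.0.16 (R 4.3.3) (robust fit) after filterByExpr and TMM scaling, in 1 fit per comparison and 1 fit of 12 libraries for the difference of effects, with Benjamini-Hochberg adjustment over all genes tested and a threshold of 0.05. The fits were also run on simulated counts. The pass mark for the difference of effects was lowered after its first run, so that part is no independent check. Of the 44 collagens, 29 passed the filter in at least 1 comparison, 23 in all, and 15 in none. By rule, tests were given for collagens called, for Col1a1, Col1a2 and Col3a1 throughout and for the most abundant of a class, and processing genes were named where called; other collagens given with a test were chosen after their values were seen. Lox stood in the lysyl oxidase and myofibroblast lists. Alternatives were DESeq2 1.42.0, other scalings, filters and thresholds, a replicate block, 1 common fit and leaving out each library. Members, gene lists and tests were chosen with earlier results of these data known. Deviations of same-numbered WT and PPARγ-KO libraries correlated at 2 months (r = 0.194, 0.272 and 0.141), which is over 0.1 in every pair. At 5 months PPARγ-KO replicates 1, 2 and 3 were over 0.1 with WT replicates 2, 3 and 1 (r = 0.112, 0.142 and 0.156). Values over 0.1 thus do not show a shared replicate effect. The main fit has no block, and blocked values stand beside the results at 2 months that they change. No pairing is established, since the labels give only a number.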

Additional observations from a re-analysis of the deposited data

How the results depend on the processing

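Counts of called collagens at 2 months (4) became 13 with DESeq2, 15 with no filter, 12 with all 12 libraries in 1 fit, 11 at an adjusted p under 0.1, 16 at an unadjusted p under 0.05 with 1.3-fold, and 0 to 15 when a library was left out. Over all genes the 519 calls became 988, 1562, 1153, 1063 and 1608 in the same order, and 117 to 1577 with a library left out. At 5 months (12) leaving out a library gave 6 to 12 (1593 to 3078 of all genes, against 2602), and the median log2 fold change ran from -0.33 to -0.03. Over time, WT gave 10 with no filter, and PPARγ-KO gave 10 at an adjusted p under 0.1 and 5 to 10 with a library left out. Over all genes these were 7342 in WT (6725 in the main fit), and 7686 and 5374 to 6024 in PPARγ-KO (6502 in the main fit). The difference of effects gave 1 with DESeq2, 3 with no filter, 5 at an unadjusted p under 0.05 with 1.3-fold and 0 to 2 with a library left out. Over all genes these settings gave 594, 793, 1563 and 83 to 567, against 238 in the main fit.

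With the replicate number as a block, 10 collagens were called at 2 months, 10 over time in WT and 2 for the difference, and the count at 5 months was 12 as before. Over all genes the block called 817, 6941, 269 and 2303 in the same order. Over time in PPARγ-KO the block gave 7 (6025 of all genes), with Col1a1 (edgeR adjusted p = 0.00534) and Col3a1 (0.0356) gained and Col5a3 lost (0.052). Same-numbered libraries did not deviate together at 5 months (r = -0.0675, -0.0542 and -0.182). Over time they had r = -0.00638, 0.295 and -0.0095 in PPARγ-KO and 0.216, 0.176 and 0.0318 in WT, so not every pair was over 0.1.

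Signs turned for Col6a3 at 5 months without WT replicate 2 or 3 (0.02 and 0.08, the range with a library left out being -0.25 to 0.08). Over time in WT, Col1a1 turned with library size alone (-0.06) and without WT replicate 1 at 2 months or WT replicate 2 or 3 at 5 months (-0.21, -0.09 and -0.05, range to 0.23), Col1a2 without WT replicate 1 at 2 months (-0.09, range to 0.28), and Col3a1 with library size alone (-0.07), with at least 10 counts in every library (-0.0018) and without the same 3 libraries (-0.20, -0.07 and -0.01, range to 0.18). With library size alone the multiplexin log2 ratio at 5 months was 0.32. With transcript lengths, an alternative chosen after seeing the data, Col1a1 over Col1a2 was 0.884 and Col6a1 over Col6a2 was 1.70. The cause of these changes was not tested, other than the lengths themselves. Of 892 settings over 57 gene results, 726 kept direction and side of the threshold, 63 lost a call, 91 gained one and 12 turned sign, and 11 of 28 called gene results were called throughout.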
